A study of Mus musculus with 6 samples.

Results

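F-box genes were taken from the transcriptomes of mouse germinal vesicle (GV) oocytes, the fully grown oocytes arrested in meiotic prophase. The members were chosen by symbol alone (Fbxo, Fbxl or Fbxw followed by a digit), which gave 73 of the 17577 genes listed: 33 Fbxo, 17 Fbxl and 23 Fbxw genes. The Fbxw genes numbered 13 to 28 formed a separate set of 15, called the oocyte Fbxw cluster here. Of these, 14 lay side by side on chromosome 9 and Fbxw17 lay on chromosome 13. The other 58 members were 33 Fbxo, 17 Fbxl and 8 Fbxw genes. Fbxw25, annotated within the chromosome 9 array, was not analysed here.

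The oocytes came from 12-week-old C57BL/6 J females that had received pregnant mare serum gonadotropin. Both groups shared this background, age and hormone. One group of 3 libraries was Bnc1tr/tr, homozygous for a small frameshift deletion in exon 4 of Bnc1 that creates a premature stop (a truncation, carried in the germline and therefore in every cell type), and the other 3 libraries were wild type (WT). Bnc1 encodes basonuclin 1, a zinc-finger transcription factor of germ cells and epithelia, and the comparison asked how its truncation alters the oocyte transcriptome. Each cDNA was made from a single oocyte by a modified Smart-seq2 procedure. The labels did not say whether the libraries of a group came from separate animals, so p-values measure the spread between these libraries.

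F-box proteins are the interchangeable substrate receptors of the SCF (Skp1, Cul1, F-box) ubiquitin ligases. The F-box holds SKP1, which docks on the CUL1 scaffold, while the rest of the protein binds a substrate: WD40 repeats in Fbxw proteins, leucine-rich repeats in Fbxl proteins and other domains in Fbxo proteins. RBX1 brings the charged ubiquitin-conjugating enzyme, NEDD8 on CUL1 switches the ligase on and the COP9 signalosome removes NEDD8. In oocytes, SCF ligases act in meiotic resumption and in the clearance of maternal proteins, and the chromosome 9 Fbxw genes are known as a mouse gene family expressed in oocytes.

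The 14 array genes spanned 651.2 kb of chromosome 9 (chr9:109139454-109790660, GRCm38.p6), all on the minus strand, in the order Fbxw21, Fbxw13, Fbxw20, Fbxw14, Fbxw28, Fbxw22, Fbxw16, Fbxw19, Fbxw23, Fbxw15, Fbxw24, Fbxw18, Fbxw26 and Fbxw27. Fbxw23 is annotated as a transcribed pseudogene with 8 exons, and the other 13 are annotated as protein coding with 10 exons each. For each gene the longest annotated transcript was compared, taken from those matched to a RefSeq mRNA where there were any. These transcripts were 78.05% to 99.2% identical to each other, with a median of 84.18% over 91 pairs. Fbxw14 and Fbxw28 were the closest pair at 99.2%. Of all 31-base words of Fbxw28 transcripts, 74.1% also occurred in transcripts of other genes, as did 70.4% for Fbxw14 and 40.7% for Fbxw16. For the other array genes this share was 15.3% (Fbxw18) to 31.8% (Fbxw15), and for Fbxw17 it was 0. Values of Fbxw14 and Fbxw28 are therefore uncertain as single genes, because reads could be split between them, and their sum is also given below.

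The upstream sequences are shown because the array genes resemble each other there as well. RefSeq had a promoter entry for 11 of the 14 array genes and for Fbxw17 (none for Fbxw13, Fbxw22 and Fbxw27). Over the 250 bases before the transcript start, 10 of these 11 were 83.84% to 97.19% identical, with a median of 90.98%. Fbxw23 could not be aligned to the others over the minimum of 50% of its length, and neither could Fbxw17. The last 120 bases before an annotated transcript start are printed 5′ to 3′ for the 3 most abundant genes of the array, 3 array genes that were lower in Bnc1tr/tr, the pseudogene and Fbxw17. For Fbxw14 and Fbxw17 this start lies inside the outer bounds of the annotated gene. Capitals mark CAGCTG (an E-box, the kind of element that basic helix-loop-helix factors bind) and TTTAAAA.
Fbxw24 (chr9:109626060-109626179, minus strand): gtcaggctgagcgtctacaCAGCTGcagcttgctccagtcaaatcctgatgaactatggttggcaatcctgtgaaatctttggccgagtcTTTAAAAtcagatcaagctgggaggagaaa
Fbxw14 (chr9:109287677-109287796, minus strand): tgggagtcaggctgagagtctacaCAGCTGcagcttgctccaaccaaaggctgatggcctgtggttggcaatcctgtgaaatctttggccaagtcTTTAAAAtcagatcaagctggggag
Fbxw28 (chr9:109339660-109339779, minus strand): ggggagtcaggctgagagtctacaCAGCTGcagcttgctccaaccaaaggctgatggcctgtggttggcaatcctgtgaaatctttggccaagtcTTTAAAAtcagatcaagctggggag
Fbxw18 (chr9:109702701-109702820, minus strand): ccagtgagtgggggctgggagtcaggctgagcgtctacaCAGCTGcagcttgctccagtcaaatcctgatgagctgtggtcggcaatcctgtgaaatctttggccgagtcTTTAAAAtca
Fbxw20 (chr9:109234755-109234874, minus strand): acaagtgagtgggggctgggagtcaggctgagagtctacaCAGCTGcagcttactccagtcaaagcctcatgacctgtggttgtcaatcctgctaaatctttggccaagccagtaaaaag
Fbxw15 (chr9:109568263-109568382, minus strand): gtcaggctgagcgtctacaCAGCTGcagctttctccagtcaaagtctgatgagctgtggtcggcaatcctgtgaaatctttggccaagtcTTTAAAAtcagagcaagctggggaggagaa
Fbxw23 (chr9:109543190-109543309, minus strand): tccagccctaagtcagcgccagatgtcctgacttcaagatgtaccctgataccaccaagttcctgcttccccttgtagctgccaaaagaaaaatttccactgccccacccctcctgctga
Fbxw17 (chr13:50417744-50417863, plus strand): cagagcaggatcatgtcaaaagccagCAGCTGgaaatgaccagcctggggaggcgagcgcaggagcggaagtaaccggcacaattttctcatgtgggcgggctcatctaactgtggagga

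Searched on both strands of the 250 bases, CAGCTG was present in 10 of the 11 array entries (absent from Fbxw23) and in Fbxw17, against 14.72% of 27025 genes with an entry. TTTAAAA was present in 9 of 11 (absent from Fbxw20 and Fbxw23), against 9.16% of all genes. TAATTG, the element that the oocyte homeobox factor NOBOX binds, was present in 0 of 11 and in 8.3% of all genes. Because 10 of the 11 entries are close copies of each other, a word in any of them is likely in the rest. These counts are therefore not independent, and enrichment over all genes was not tested. The longest word that the 10 alignable entries shared, AAATCTTTGGCC, was found in 11 genes in all (0.04%). It was chosen after the sequences were compared, and it overlaps neither CAGCTG nor TTTAAAA. The entries printed above hold both Fbxw14 and Fbxw28, whose levels hardly differed between genotypes, and Fbxw18 and Fbxw20, which were more than 2-fold lower in Bnc1tr/tr.

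The check of the libraries was as follows. Bnc1 itself (NCBI Gene 12173) was read at 9.04, 6.51 and 5.83 FPKM (fragments per kilobase of transcript, scaled to the depth of the library) in Bnc1tr/tr and at 13.17, 12.54 and 16.23 FPKM in WT, a log2 fold change of -0.89 ± 0.20 (SE, adjusted p = 0.0090, limma). All fold changes are Bnc1tr/tr minus WT on log2(FPKM + 1). A gene passed the test at an adjusted p under 0.05 with an absolute log2 fold change over 0.5. The 10 oocyte markers (Zp1 to Zp3, Gdf9, Bmp15 and others) summed to 7363 to 7942 FPKM in Bnc1tr/tr and 6238 to 10244 FPKM in WT. Of these, Zp2 was called lower (-0.74 ± 0.22, adjusted p = 0.032, limma). Zp3 (-0.62 ± 0.22, adjusted p = 0.063) was lower and Bmp15 (0.56 ± 0.20, adjusted p = 0.063) and Kit (0.48 ± 0.15, adjusted p = 0.041, under the fold threshold) were higher in every Bnc1tr/tr library than in every WT library, without being called. Markers of other ovarian cells were far lower and partly differed by genotype: the 10 listed granulosa and cumulus markers summed to 43.3 to 60.4 FPKM in Bnc1tr/tr and 22.8 to 39.95 FPKM in WT, and the 3 listed surface epithelium markers to 8.65 to 32.3 FPKM and 0.64 to 1.71 FPKM. The corresponding sums were 5.95 to 7.52 and 0.71 to 2.64 FPKM for 4 theca markers, 5.31 to 7.46 and 1.4 to 2.09 FPKM for 3 stroma markers, 3.16 to 5.13 and 7.55 to 9.92 FPKM for 2 endothelium markers, and 0.96 to 54.4 and 1.39 to 2.94 FPKM for 4 blood and immune markers. No marker was at 0 in all 6 libraries, whereas Foxl2, Amhr2, Col1a1 and Cdh5 were at 0 in 5 of 6. The part of these markers, oocyte markers included, in the F-box values was not tested.

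The array genes were among the most abundant transcripts of the WT oocyte. Mean WT levels of its 14 genes ran from 222 FPKM (Fbxw23) to 6216 FPKM (Fbxw24), with a median of 1974 FPKM, and 10 of the 14 were among the 100 most abundant genes. Fbxw24 was the 6th most abundant of all 17577 genes, Fbxw14 the 14th, Fbxw28 the 15th, Fbxw15 the 16th and Fbxw16 the 17th. Summed over the array, 3.87%, 4.69% and 5.31% of each WT library's FPKM total came from these genes, 4.62% ± 0.72 (SD, n = 3). The other 58 F-box genes together held 0.163% ± 0.029 (SD, n = 3), so the array was 28.4 times as abundant as all of them. Their mean WT levels ran from 0.013 to 188 FPKM with a median of 4.33 FPKM, and 14 of them were under 1 FPKM. Fbxw17, the cluster gene outside the array, was also low, at 25.8, 21.9 and 6.99 FPKM in WT.

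The order of the array genes by level was nearly the same in all 6 libraries. Spearman's rho between any pair of libraries was 0.952 to 0.996 over the 14 genes, as a description across genes that share libraries and sequence. The plot of FPKM by gene and library shows the array in chromosomal order.

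**Figure D1:**
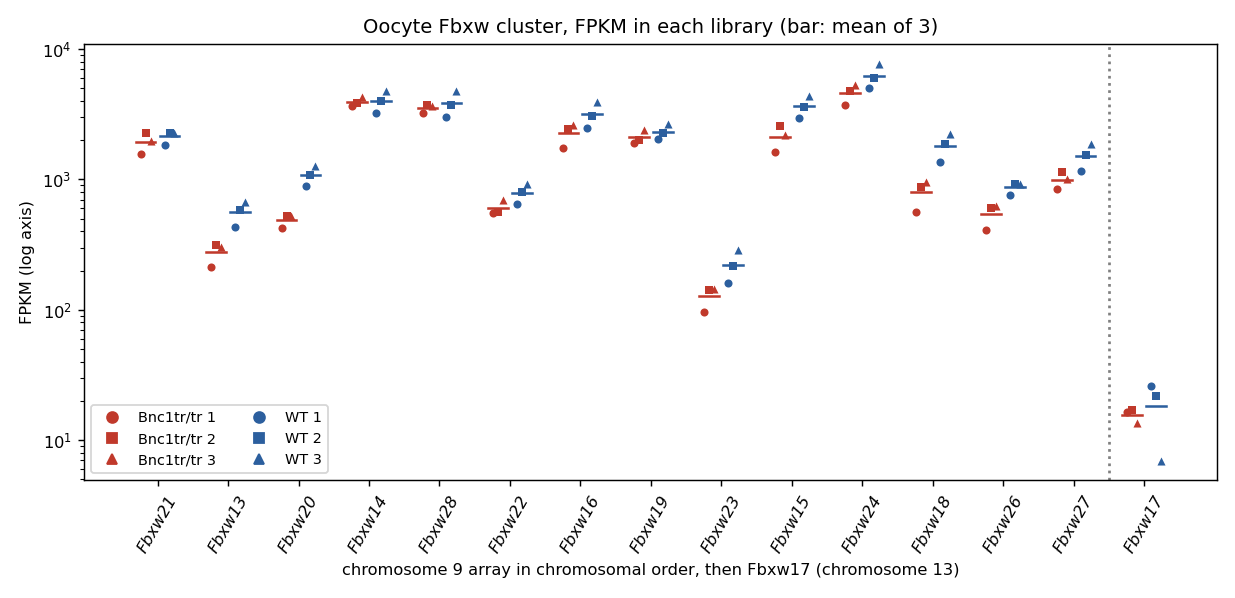
FPKM (log axis) of the 14 array genes in chromosomal order and of Fbxw17, for 3 Bnc1tr/tr libraries (red) and 3 WT libraries (blue), with a bar at each mean. Fbxw13, Fbxw20, Fbxw23, Fbxw15, Fbxw18, Fbxw26 and Fbxw27 do not overlap between genotypes, whereas Fbxw14 and Fbxw28 lie at about the same level in both.

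In Bnc1tr/tr oocytes 6 of the 15 cluster genes were lower and 0 were higher. The log2 fold change was below 0 for all 15, from -1.20 to -0.01, with a median of -0.48, beside a median of 0.15 over all 10560 genes tested and of -0.06 over the 1288 genes averaging 100 FPKM or more. Of all genes tested, 7.68% were called lower, 24.1% higher and 31.8% in either direction. Among genes averaging 100 FPKM or more these shares were 9.39%, 9.47% and 18.9%. At an unadjusted p under 0.05, 7 cluster genes were lower and 0 higher in limma. All 15 members passed the filter of a mean of 1 FPKM. The count of genes called lower was 3 without Bnc1tr/tr 1 or without WT 2, 4 without Bnc1tr/tr 2, Bnc1tr/tr 3 or WT 3, and 7 without WT 1. Fbxw13, Fbxw18 and Fbxw20 were called in each of these 6 fits.

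The largest decreases were in Fbxw18, Fbxw20 and Fbxw13. Fbxw18 (NCBI Gene 546161) measured 560, 868 and 955 FPKM in the 3 Bnc1tr/tr libraries and 1371, 1856 and 2212 FPKM in WT. Every Bnc1tr/tr value lay below every WT value, and the WT mean was 2.28 times the Bnc1tr/tr mean (log2 fold change -1.20 ± 0.26, SE, adjusted p = 0.0073, limma). Fbxw20 (434440) measured 427, 523 and 521 FPKM in Bnc1tr/tr and 891, 1076 and 1273 FPKM in WT. The Bnc1tr/tr values were tightly grouped and the genotypes were far apart, with a WT mean 2.204 times the Bnc1tr/tr mean (log2 fold change -1.13 ± 0.19, adjusted p = 0.0021, limma). Fbxw13 (211305), the neighbour of Fbxw20, measured 213, 312 and 303 FPKM in Bnc1tr/tr and 432, 580 and 668 FPKM in WT. Its log2 fold change was -1.02 ± 0.23 (adjusted p = 0.0091, limma).

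The other 3 genes that passed were called less firmly. Fbxw15 (382105), one of the most abundant members, measured 1629, 2546 and 2173 FPKM in Bnc1tr/tr and 2965, 3609 and 4338 FPKM in WT (log2 fold change -0.79 ± 0.22, adjusted p = 0.025, limma). The pseudogene Fbxw23 (635668) measured 96.8, 142.9 and 144.1 FPKM in Bnc1tr/tr and 160.1, 218.1 and 286.4 FPKM in WT (-0.77 ± 0.25, adjusted p = 0.045). Fbxw26 (382109) measured 411, 602 and 623 FPKM in Bnc1tr/tr and 762, 927 and 921 FPKM in WT (-0.69 ± 0.21, adjusted p = 0.031). None of these 3 overlapped between genotypes. Leaving out a single library ended the call of Fbxw23 in 5 of 6 fits and of Fbxw15 and Fbxw26 in 4 of 6 each. All 3 calls were lost with no filter on low values, and those of Fbxw23 and Fbxw26 with a pseudocount of 0.1. Quantile normalization ended the call of Fbxw15 (-0.48, adjusted p = 0.085, limma). With upper-quartile and median-ratio scaling all 3 remained called.

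Fbxw27 did not overlap between genotypes either, at 842, 1140 and 999 FPKM in Bnc1tr/tr and 1155, 1531 and 1862 FPKM in WT, but did not pass (log2 fold change -0.59 ± 0.22, adjusted p = 0.067, limma). Of 17 other settings, Fbxw27 was called lower in 5, upper-quartile (-0.76) and median-ratio (-0.81) scaling among them, and was not called in 12. In all, 7 of 15 cluster genes were lower in every Bnc1tr/tr library than in every WT library, beside 14.1% of all genes tested and 23.4% of genes of at least 100 FPKM.

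Of the 5 most abundant members, Fbxw24, Fbxw14, Fbxw28 and Fbxw16 gave overlapping values, unlike Fbxw15. Fbxw24 measured 3725, 4799 and 5303 FPKM in Bnc1tr/tr and 4996, 5953 and 7699 FPKM in WT (-0.42 ± 0.22, adjusted p = 0.17, limma). Fbxw16 had 1733, 2440 and 2632 FPKM against 2488, 3088 and 3898 FPKM (-0.48 ± 0.23, adjusted p = 0.15). In both, the ranges overlapped in the highest Bnc1tr/tr and lowest WT libraries. Fbxw14 had 3654, 3830 and 4261 FPKM in Bnc1tr/tr and 3235, 3971 and 4739 FPKM in WT (-0.01 ± 0.19, adjusted p = 0.97). Fbxw28 had 3251, 3728 and 3659 FPKM against 3023, 3692 and 4755 FPKM (-0.09 ± 0.20, adjusted p = 0.78). For these near-identical genes the sum is the firmer quantity: 7461 ± 514 FPKM in Bnc1tr/tr and 7805 ± 1622 FPKM in WT (SD, n = 3 each), a ratio of 0.956 with overlapping groups. The remaining array genes, Fbxw21 (-0.14 ± 0.20), Fbxw19 (-0.14 ± 0.18) and Fbxw22 (-0.37 ± 0.19), did not pass, and nor did Fbxw17 (-0.04 ± 0.40), whose WT libraries spread more widely than its Bnc1tr/tr libraries.

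**Figure D2:**
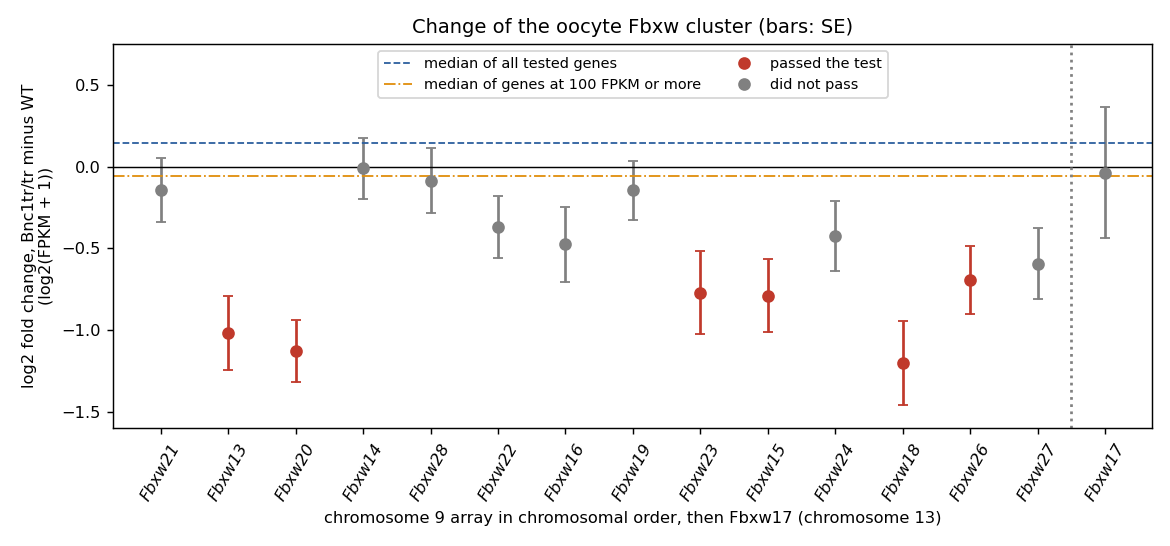
Log2 fold change (Bnc1tr/tr minus WT, log2(FPKM + 1)) ± SE of each cluster gene in chromosomal order, red where the test was passed. The lowest values are at Fbxw18, Fbxw20 and Fbxw13, values near 0 are at Fbxw21, Fbxw14, Fbxw28 and Fbxw19, and the dashed lines give the medians of all genes tested (0.15) and of genes of at least 100 FPKM (-0.06).

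Neighbours in the array did not move by the same amount. Reading along the chromosome, Fbxw21 was at -0.14, the next pair Fbxw13 and Fbxw20 at -1.02 and -1.13, the next pair Fbxw14 and Fbxw28 at -0.01 and -0.09, and the last 6 genes from Fbxw23 on were between -1.20 and -0.42. Over the 14 genes the log2 fold change correlated with the WT mean FPKM at Spearman's rho 0.53, given as a description.

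Taken as a whole, the array had a lower mean in Bnc1tr/tr, in a test that with so few libraries could not call any difference. Its summed FPKM was 20553, 25806 and 26659 in Bnc1tr/tr and 26002, 31874 and 38508 in WT. The groups overlapped in 1 library of each, and the means were 24339 ± 3307 and 32128 ± 6257 FPKM (SD, n = 3 each), a ratio of 0.758 (exact two-sided permutation test, p = 0.20, where 3 against 3 libraries cannot go below 0.10). As a share of each library's FPKM total the array held 3.13%, 3.66% and 3.87% in Bnc1tr/tr, again below the WT mean (p = 0.20 by the same exact permutation test).

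Libraries of a genotype differed from each other by a factor that most array genes shared. In WT, library 1 was the lowest for 14 of 14 array genes and library 3 the highest for 12 of 14. In Bnc1tr/tr, library 1 was the lowest for 14 of 14. Over all genes of at least 100 FPKM, WT 1 was the lowest WT library for 42.9%, WT 3 the highest for 51.3%, and Bnc1tr/tr 1 the lowest Bnc1tr/tr library for 55.4%. FPKM totals ran from 657550 (Bnc1tr/tr 1) to 724550 (WT 3). Rough estimates of depth rose in the order of the array sums within each genotype. They were 12500000, 16650000 and 17050000 fragments in Bnc1tr/tr and 14450000, 16100000 and 21000000 fragments in WT. The part of depth in the shared factor was not tested.

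Expressing each gene as a percent of the array's own sum removed this shared factor. The SD of the shares within WT ran from 0.060 (Fbxw20) to 0.69 (Fbxw21) percentage points, and was smaller than within Bnc1tr/tr for 12 of 14 genes, the exceptions being Fbxw23 and Fbxw26. Fbxw14 made up 12.4%, 12.5% and 12.3% of the array in the 3 WT libraries, and 17.8%, 14.8% and 16.0% in Bnc1tr/tr. Fbxw20 made up 3.43%, 3.38% and 3.31% in WT and 2.08%, 2.02% and 1.95% in Bnc1tr/tr. Fbxw15 made up 11.4%, 11.3% and 11.3% in WT and 7.93%, 9.87% and 8.15% in Bnc1tr/tr, and Fbxw18 5.27%, 5.82% and 5.74% in WT and 2.72%, 3.36% and 3.58% in Bnc1tr/tr. Each of these 4 genes was separated between genotypes, with Fbxw14 higher and the other 3 lower. Of the 14 shares, 7 were lower in every Bnc1tr/tr library (Fbxw13, Fbxw20, Fbxw23, Fbxw15, Fbxw18, Fbxw26 and Fbxw27), 3 were higher in every Bnc1tr/tr library (Fbxw21, Fbxw14 and Fbxw28) and 4 overlapped. Together the 7 genes held 29.7%, 30.7% and 30.0% of the array in WT and 20.3%, 23.8% and 21.4% in Bnc1tr/tr, and the 3 genes 31.1%, 31.2% and 30.6% in WT and 41.2%, 38.1% and 37.1% in Bnc1tr/tr. Shares sum to 100% in each library, so a lower share of one gene raises the others, and these groups of 7 and 3 were formed after their values were seen and were not tested.

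**Figure D3:**
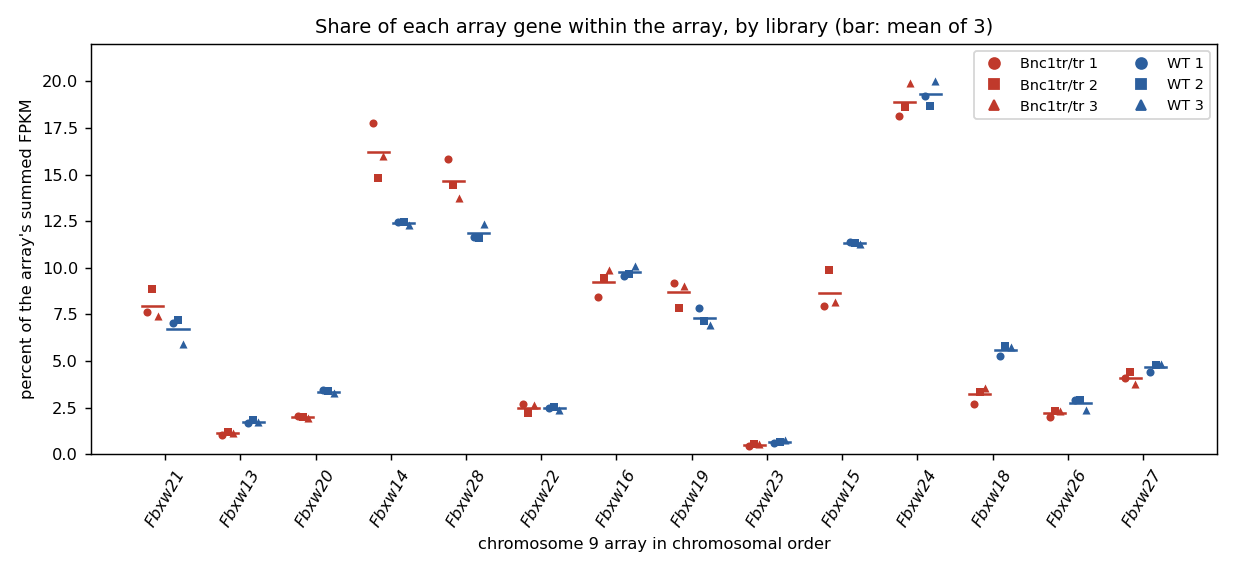
Percent of the array's summed FPKM held by each gene in the 3 Bnc1tr/tr (red) and 3 WT (blue) libraries, with bars at the means. The WT libraries lie closest together at Fbxw20, Fbxw23 and Fbxw15 and spread most at Fbxw21 and Fbxw24. Fbxw14 and Fbxw28 take a larger share in all 3 Bnc1tr/tr libraries, and Fbxw15, Fbxw18 and Fbxw20 take a smaller one.

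The 58 other F-box genes did not share one direction. Of these, 47 passed the filter and 11 did not, and of the 47, 9 were higher, 6 were lower and 32 did not pass, which is 31.9% called beside 31.8% of all genes tested. Their median log2 fold change was 0.14, beside 0.15 over all genes tested. The split of 9 higher and 6 lower became 6 and 7 with upper-quartile or median-ratio scaling and 4 and 7 with quantile normalization. With a minimum mean of 5 FPKM the split was 3 and 5. Without a library, the count called was 8 (without WT 2) to 18 (without WT 3), and 9 without Bnc1tr/tr 3. Summed, they held 1156, 1054 and 1030 FPKM in Bnc1tr/tr and 1293, 1110 and 969 FPKM in WT (exact two-sided permutation test, p = 0.80, n = 3 each). By limma, 24.1% of all genes tested were called higher and 7.68% lower, and departures of single families from these shares were not tested. By family, 4 of 25 tested Fbxo genes were higher and 5 lower. Of 14 tested Fbxl genes, 5 were higher and 0 lower, and of 8 other Fbxw genes 0 were higher and 1 (Fbxw9) lower. These counts were the same at an unadjusted p under 0.05.

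Among the genes that rose, Fbxo32 (atrogin-1, known from muscle atrophy) stood out. It was listed at 10.3, 3.86 and 7.15 FPKM in Bnc1tr/tr and at 0.02, 0.00 and 0.04 FPKM in WT (log2 fold change 2.91 ± 0.28, adjusted p = 9.5e-05, limma). It was near 0 in every WT library and passed the filter only through its Bnc1tr/tr values. Its fold change depends on the pseudocount, so no linear fold is given. Fbxl21, a leucine-rich repeat receptor, had 4.06, 2.81 and 3.59 FPKM in Bnc1tr/tr and 0.74, 1.78 and 0.53 FPKM in WT (1.19 ± 0.24, adjusted p = 0.0058), and was higher in every Bnc1tr/tr library. With quantile normalization its log2 fold change was 0.76, still called.

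A further 6 genes rose by less. Fbxo15, a marker of pluripotent cells, had 16.9, 15.9 and 19.5 FPKM against 10.6, 12.0 and 10.2 FPKM (0.63 ± 0.16, adjusted p = 0.018). Fbxo3 had 17.1, 17.5 and 20.01 FPKM against 10.4, 9.33 and 12.7 FPKM (0.71 ± 0.17, adjusted p = 0.014). These calls of Fbxo15 and Fbxo3 were lost under upper-quartile, median-ratio and quantile scaling, and in 2 of 6 fits that left out a library (Bnc1tr/tr 3 for both, WT 1 for Fbxo15 and WT 2 for Fbxo3). Fbxo48 (1.05 ± 0.21, adjusted p = 0.0051), Fbxl15 (0.82 ± 0.18, adjusted p = 0.0093), Fbxl19 (0.65 ± 0.16, adjusted p = 0.015) and Fbxl12 (0.54 ± 0.16, adjusted p = 0.034) were at most 5.87 FPKM in any library. Mean WT levels of Fbxo48, Fbxl15 and Fbxl19 were 0.36, 0.45 and 0.70 FPKM, so these genes passed the filter only through their Bnc1tr/tr values. Fbxo48 remained called with quantile normalization (0.65), and the call of Fbxl19 was lost without Bnc1tr/tr 2 or WT 2. The call of Fbxl12 was not followed through the other settings, and 35.9% of its 31-base words also occurred in transcripts of other genes. Quantile normalization ended the calls of Fbxl19 (0.22, adjusted p = 0.31, limma) and Fbxl15 (0.42, adjusted p = 0.12, limma). The summed markers of surface epithelium, granulosa, theca and stroma given above were higher in Bnc1tr/tr in the same libraries as these rises. Of the markers listed, some of them not tested, 3 of 3 surface epithelium, 2 of 10 granulosa, 1 of 4 theca and 1 of 3 stroma markers were called higher. In these sets 0 were called lower (limma). Of all genes tested, 24.1% were called higher and 7.68% lower. The endothelium marker Pecam1 was called lower (-1.02 ± 0.20, adjusted p = 0.0048, limma). Some single markers went the other way without being called, such as Inha with means of 0.69 FPKM in Bnc1tr/tr and 3.42 FPKM in WT. The part of these markers in the rises was not tested.

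The largest decreases were in Fbxo46 and Fbxo16. Fbxo46 had 8.17, 8.15 and 6.54 FPKM in Bnc1tr/tr and 18.0, 15.7 and 16.3 FPKM in WT (-1.04 ± 0.17, adjusted p = 0.0016, limma). Fbxo16 had 4.23, 8.43 and 6.61 FPKM against 11.9, 15.8 and 14.1 FPKM (-1.04 ± 0.23, adjusted p = 0.0096). Neither overlapped between genotypes, and both remained called whichever library was left out. Fbxw9 (-0.97 ± 0.25, adjusted p = 0.017) was at most 3.62 FPKM and was not called without Bnc1tr/tr 3 (-0.74) or WT 2 (-0.89).

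Fbxo8, an F-box protein with a Sec7 domain and the most abundant F-box gene outside the cluster, had 117, 136 and 132 FPKM in Bnc1tr/tr and 205, 191 and 169 FPKM in WT (-0.55 ± 0.16, adjusted p = 0.032). Fbxo9 had 24.5, 17.2 and 20.6 FPKM against 33.9, 30.96 and 28.7 FPKM (-0.58 ± 0.18, adjusted p = 0.039), and Fbxo22 had 2.68, 3.11 and 5.28 FPKM against 8.34, 6.03 and 5.54 FPKM (-0.73 ± 0.24, adjusted p = 0.047). All 3 were lower in every Bnc1tr/tr library, but the call of Fbxo8 was lost in 5 of 6 fits that left out a library and those of Fbxo9 and Fbxo22 in 4 of 6.

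**Figure D4:**
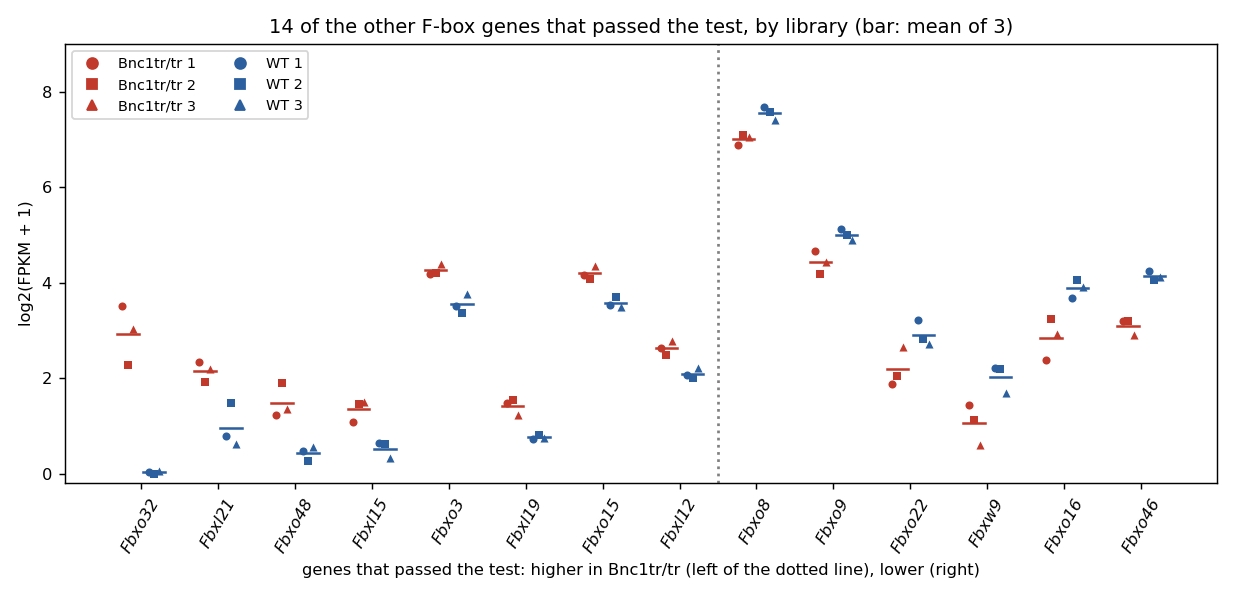
Log2(FPKM + 1) of 14 of the 15 F-box genes outside the cluster that passed the test, in each Bnc1tr/tr (red) and WT (blue) library, with bars at the means. The 8 plotted genes that were higher stand left of the dotted line, led by Fbxo32, which lies near 0 in all 3 WT libraries, and the 6 that were lower stand right of it, with Fbxo8 the most abundant.

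F-box genes with established roles in the cell cycle and the oocyte mostly did not pass. Fbxo5 (EMI1), an inhibitor of the anaphase-promoting complex, had 118, 130 and 109 FPKM in Bnc1tr/tr and 222, 166 and 123 FPKM in WT (-0.48 ± 0.23, adjusted p = 0.14, limma). WT 3 overlapped the Bnc1tr/tr libraries, and without it the difference was called (-0.69), as it was with upper-quartile (-0.65) and median-ratio (-0.70) scaling. Fbxo30, required for meiotic chromosome compaction in oocytes, had 72.6, 56.2 and 64.8 FPKM against 81.0, 55.7 and 56.7 FPKM (0.02 ± 0.20, adjusted p = 0.96). Fbxo34, which acts in the meiotic G2/M transition, was at 0.21 ± 0.20 (adjusted p = 0.45).

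Fbxl5, the iron-regulated receptor for the iron regulatory protein IRP2, had 47.3, 43.5 and 52.1 FPKM in Bnc1tr/tr and 72.9, 50.4 and 41.3 FPKM in WT (-0.16 ± 0.22, adjusted p = 0.62), and the genotypes overlapped. Fbxw7, the receptor for cyclin E, had 3.33, 2.53 and 2.55 FPKM against 1.68, 1.73 and 2.49 FPKM (0.36 ± 0.18, adjusted p = 0.16), without overlap. Fbxo11 (-0.14 ± 0.24), Fbxw8 (-0.06 ± 0.18) and Fbxw11 (0.27 ± 0.24) overlapped between genotypes, as did the abundant Fbxw4 (0.22 ± 0.17), Fbxl6 (0.66 ± 0.36) and Fbxo28 (0.09 ± 0.16), none of which passed.

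Some of the 11 genes under the filter also differed in their listed values. Fbxo27 was listed at 3.26, 1.25 and 1.26 FPKM in Bnc1tr/tr and at 0.00, 0.04 and 0.00 FPKM in WT. Fbxo41 was listed at 0.89, 0.86 and 0.34 FPKM against 0.00, 0.02 and 0.03 FPKM, and Fbxo45 at 1.56, 1.13 and 1.31 FPKM against 0.57, 0.40 and 0.58 FPKM. These 3, named after their values were seen, were higher in every Bnc1tr/tr library and were the genes under the filter that were called when no filter was applied. Fbxl7 went the other way, at 0.38, 0.39 and 0.31 FPKM in Bnc1tr/tr and 0.41, 0.99 and 0.58 FPKM in WT. It was lower in every Bnc1tr/tr library but was not called without the filter. Fbxo2, Fbxo4, Fbxo6 and Fbxo39 were at most 0.54 FPKM in any library.

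The machinery around the F-box proteins changed in a few places. Of 48 SCF genes listed, 42 were tested, 2 were higher and 6 were lower, which is 19.0% called beside 31.8% of all genes tested. The split of 2 and 6 was 1 and 9 with upper-quartile or median-ratio scaling and 2 and 8 with quantile normalization, and the count of 8 was 3 to 5 when any library other than WT 3 was left out. Skp1a, the adaptor that every SCF ligase needs, was the most abundant at 1858, 2118 and 2063 FPKM in Bnc1tr/tr and 2560, 2726 and 3093 FPKM in WT. It was lower in all 3 Bnc1tr/tr libraries and stood at the edge of the test (-0.47 ± 0.16, adjusted p = 0.054, limma), and it passed with upper-quartile (-0.64) and median-ratio (-0.69) scaling. The scaffold Cul1 (-0.09 ± 0.17) and the RING protein Rbx1 (-0.10 ± 0.20) were at about 300 FPKM in both genotypes and overlapped. F-box genes that the symbol rule does not reach, Skp2 (0.68 ± 0.24, adjusted p = 0.057), Btrc (-0.03 ± 0.25) and Ccnf (-0.07 ± 0.20), did not pass.

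Of the 9 COP9 signalosome subunits, which form the enzyme that takes NEDD8 off cullins, 4 were lower and 0 higher (5 and 0 at an unadjusted p under 0.05, limma), beside 7.68% of all genes tested called lower and 9.39% of those averaging 100 FPKM or more. Cops3 had 208, 239 and 230 FPKM in Bnc1tr/tr and 325, 334 and 331 FPKM in WT (-0.55 ± 0.15, adjusted p = 0.024, limma). Cops6 had 170, 206 and 189 FPKM against 305, 312 and 239 FPKM (-0.59 ± 0.18, adjusted p = 0.033). Cops7a (-0.84 ± 0.28, adjusted p = 0.046) and Gps1 (-0.82 ± 0.28, adjusted p = 0.049) were just inside the threshold, and Gps1 overlapped between genotypes. Leaving out a single library ended the calls of Cops6, Cops7a and Gps1 in 5 of 6 fits and of Cops3 in 4 of 6. The catalytic subunit Cops5 was at -0.27 ± 0.18 (adjusted p = 0.31).

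Glmn, which binds RBX1 and blocks the ligase, had 128, 196 and 209 FPKM in Bnc1tr/tr and 304, 328 and 415 FPKM in WT (-0.99 ± 0.23, adjusted p = 0.011). Ube2r2, a ubiquitin-conjugating enzyme of SCF ligases, had 0.15, 0.55 and 0.63 FPKM against 1.83, 2.23 and 1.91 FPKM (-1.06 ± 0.19, adjusted p = 0.0026). Uba3, the catalytic subunit of the NEDD8-activating enzyme, was higher at 101.4, 102.7 and 126 FPKM against 87.0, 67.2 and 58.3 FPKM (0.64 ± 0.20, adjusted p = 0.036), and this call was lost with upper-quartile and median-ratio scaling and in 5 of 6 fits that left out a library. Cul5, the scaffold of a different cullin ligase family, had 76.6, 58.4 and 66.3 FPKM against 38.0, 34.0 and 29.6 FPKM (0.96 ± 0.18, adjusted p = 0.0036). Glmn, Ube2r2 and Cul5 remained called whichever library was left out. Ube2r2, however, was near the floor, with means of 0.44 FPKM in Bnc1tr/tr and 1.99 FPKM in WT. It passed the filter only through its WT values.

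**Figure D5:**
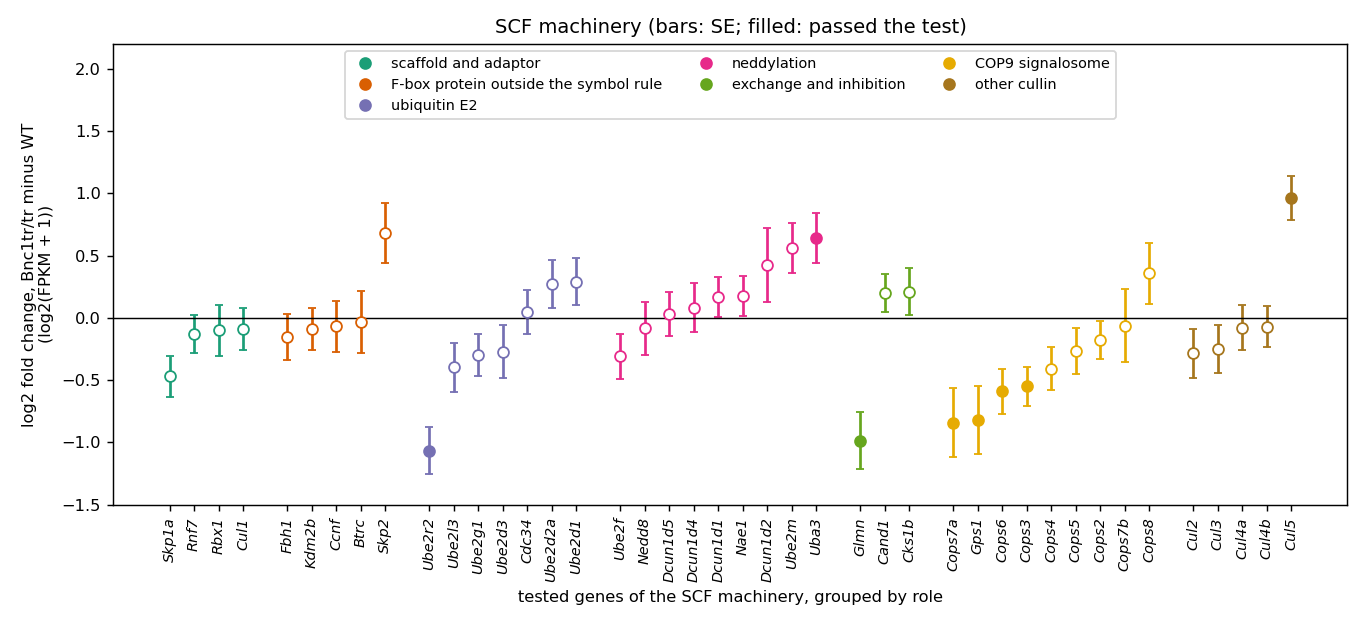
Log2 fold change (Bnc1tr/tr minus WT, log2(FPKM + 1)) ± SE of the 42 tested genes of the SCF machinery, grouped by role, with filled points where the test was passed. Most points lie near 0, 4 of 9 COP9 signalosome subunits, Glmn and Ube2r2 are lower, and Uba3 and Cul5 are higher.

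Transcripts of known SCF substrates were listed for comparison. Of 20 genes, 14 were tested, 3 were higher and 0 were lower (21.4% called by limma, and 6 and 0 at an unadjusted p under 0.05), with a median log2 fold change of 0.39. Of all genes tested 24.1% were called higher and 31.8% in either direction, with a median of 0.15. The 3 were Cdkn1b, the p27 inhibitor degraded through SKP2, at 21.8, 21.6 and 20.1 FPKM in Bnc1tr/tr and 7.03, 6.51 and 10.52 FPKM in WT (1.32 ± 0.20, adjusted p = 0.0011, limma), Bcl6, a target of FBXO11, at 4.71, 3.95 and 4.99 FPKM against 0.94, 0.91 and 0.84 FPKM (1.54 ± 0.16, adjusted p = 0.00014), and Nfkbia, a target of the Btrc and Fbxw11 proteins (0.75 ± 0.19, adjusted p = 0.017). These genes were named after their values were seen, and transcript levels do not measure the degradation of the proteins.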

How the data were processed

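The authors prepared cDNA from GV oocytes by a modified Smart-seq2 procedure (oligo-dT priming, template switching, PCR) and deposited FPKM values per gene for 3 Bnc1tr/tr and 3 WT libraries, named by NCBI Gene ID and symbol. Their processing notes name HISAT2 2.0.4, Bowtie2 2.2.5, RSEM 1.2.12 and GRCm38.p6, without roles. RSEM can divide reads among near-identical genes. FPKM are relative to each library, so total RNA per oocyte was not measured. No read counts were used here. Steps in the low FPKM of 934 genes with 1 annotated transcript put the depth at about 12500000 to 21000000 fragments per library, a rough estimate.

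Values were tested as log2(FPKM + 1) over 10560 genes averaging 1 FPKM or more using limma 3.58.1 in R 4.3.3 (lmFit, eBayes), with Benjamini-Hochberg adjustment over all of them, and the fit was tested on simulated data. Alternatives were other pseudocounts, filters, scalings, thresholds and variance models, a replicate block, each library left out and, chosen after seeing the data, scaling without the cluster. Named were all cluster genes, the 8 most abundant and up to 8 most increased and 8 most decreased of the others, F-box genes with known roles (1 gene is counted but not reported by name here), the central and all called SCF genes, and Bnc1. Fbxl12, also called higher, was named in addition and is not part of the refits counted below. Members, lists and rules were chosen with earlier results of these data known. Genes were placed with RefSeq (GRCm38.p6), promoters taken from RefSeq and transcripts from GENCODE M21. Transcripts and promoters were aligned in pairs with Biopython, counting a pair where at least 50% of the shorter sequence aligned.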

Additional observations from a re-analysis of the deposited data

How the results depend on the processing

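Of 908 refits of the named genes other than Bnc1, 755 kept their direction and side of the threshold, 108 lost a call, 14 gained one and 31 changed sign, all of the last in genes not called in either fit. Upper-quartile, median-ratio and quantile scaling moved the median of all genes tested from 0.15 to 0.00, -0.05 and -0.09, and the median log2 fold change of the other F-box genes from 0.14 to -0.011, -0.054 and -0.16. The median of the cluster stayed below 0 in every setting (-0.70 to -0.29). Counts called moved as follows. With an absolute log2 fold change over 1, 9 F-box genes were called, of them 3 in the cluster and 6 outside it, with 1 SCF gene, and Bnc1 (-0.89) was not called. With no filter on low values 3 cluster and 5 SCF genes were called, with a minimum mean of 5 FPKM 8 F-box genes outside the cluster, and with a pseudocount of 0.1 4 SCF genes. Leaving out 1 library gave 11 to 22 F-box genes, 3 to 7 cluster genes, 8 to 18 other F-box genes, 3 to 7 SCF genes, and -1.06 to -0.78 for Bnc1. Where an arm was left with 2 libraries, the spread was shared across both groups. The cause of these differences was not tested, beyond the smaller number of libraries or genes that a setting itself brings.

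Signs changed as follows. Quantile normalization gave 0.22 for Fbxw14, 0.16 for Fbxw28, -0.065 for Fbxo30, -0.020 for Fbxo28, -0.080 for Fbxw7 and -0.15 for Fbxw11. Upper-quartile scaling gave -0.15 for Fbxo30 and -0.078 for Fbxo28, and median-ratio scaling gave -0.20 and -0.13 for these and -0.0085 for Fbxo34. Leaving out 1 library spanned both signs for Fbxw17 (-0.58 to 0.29), Fbxw21 (-0.27 to 0.0028), Fbxw14 (-0.15 to 0.12), Fbxw28 (-0.24 to 0.083), Fbxo30 (-0.078 to 0.19), Fbxl5 (-0.35 to 0.057), Fbxo11 (-0.31 to 0.085), Fbxw8 (-0.13 to 0.064), Rbx1 (-0.24 to 0.082), Btrc (-0.32 to 0.15) and Ccnf (-0.19 to 0.11). Without WT 3, Fbxw17 was called lower (-0.58).

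The paper states that littermates were compared. Neither it nor the labels say whether the replicate numbers of the titles pair the libraries. The main fit did not treat the libraries as paired. After subtracting each group's mean, libraries numbered 1, 2 and 3 had correlations of 0.28, -0.03 and 0.12. Of 3 libraries, 2 correlated best with their own number. So few libraries cannot settle whether they are paired. With the number as a replicate block, 23 F-box genes were called, 7 of them in the cluster and 16 outside it, with 10 SCF genes and Bnc1 at -0.89. The summed FPKM of the cluster gave a log2 ratio of -0.40, beside a median of -0.48 over its single genes. With the cluster left out of the scaling, 6 cluster genes and 13 others were called.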

Other observations

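The genes that flank the array were read as well, chosen after their values were seen. Spink8, the next gene after Fbxw27 and a serine protease inhibitor of the Kazal type, had 17.2, 25.5 and 23.9 FPKM in Bnc1tr/tr and 0.88, 0.51 and 1.99 FPKM in WT (log2 fold change 3.49 ± 0.27, adjusted p = 2.8e-05, limma), so it rose beside an array in which no gene rose. Nme6, the gene after Spink8, had 33.8, 34.8 and 29.0 FPKM against 45.5, 49.8 and 44.2 FPKM (-0.50 ± 0.16, adjusted p = 0.041). Plxnb1, before Fbxw21, was at most 0.95 FPKM in any library and was not tested.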
